A study of Mus musculus with 2 samples.

Results

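The miR-26 and miR-101 genes of the mouse myoblast line C2C12 are described here from small RNA sequencing. They were taken by name from the annotation used for the count tables, as the 3 genes of the miR-26 family (Mir26a-1, Mir26a-2 and Mir26b) and 2 genes of the miR-101 family (Mir101a and Mir101b). These are 5 of the 2202 miRNA genes in the tables, and all 5 were found there. The study holds 2 libraries of 1 group, numbered as biological replicates, made from total RNA of C2C12 cells with an upper size limit on the RNA sequenced and with no treatment named. C2C12 is an established line that came from injured thigh muscle of C3H mice. Its stage of growth or differentiation, sex and age are not given, and the data hold no comparison of conditions.

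MicroRNAs are cut from hairpin precursors and loaded into Argonaute proteins, where the bases near the 5′ end, the seed, pair with target mRNAs and lower their stability and translation. The miR-26 and miR-101 families are known for acting on Ezh2, the catalytic subunit of Polycomb repressive complex PRC2, which places a repressive methyl mark on histones. In myoblasts Ezh2 holds muscle genes silent until differentiation, and miR-26a has been reported to rise as myoblasts differentiate. The miR-26 genes lie inside genes of the Ctdsp family, small phosphatases that act on RNA polymerase II and on regulators of neuronal and cell cycle genes.

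The mature sequences show which members can be told apart by a short read. They are printed 5′ to 3′ from RefSeq (build GRCm38.p6), with the seed, bases 2 to 8, in capitals, for the arm by which each family is known.
miR-26a-5p, from Mir26a-1 and Mir26a-2: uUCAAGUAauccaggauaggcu
miR-26b-5p, from Mir26b: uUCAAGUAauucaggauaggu
miR-101a-3p, from Mir101a: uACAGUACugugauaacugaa
miR-101b-3p, from Mir101b: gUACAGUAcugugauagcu
The miR-26 genes share 1 seed, UCAAGUA. Counted from the 5′ end, miR-26a-5p and miR-26b-5p differed at 2 of 21 compared bases, C11U and C21U, both outside the seed. RefSeq starts miR-101b-3p 1 base earlier than miR-101a-3p. The listed seeds of this family are therefore ACAGUAC for miR-101a-3p and UACAGUA for miR-101b-3p. In register, the miR-101 sequences differed at 1 of 18 bases, A16G counted on miR-101a-3p.

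The hairpins show where the copies of miR-26a differ. They are printed with the mature arm named above in capitals, and the RefSeq and GENCODE M21 sequences were identical for all 5 members.
Mir26a-1: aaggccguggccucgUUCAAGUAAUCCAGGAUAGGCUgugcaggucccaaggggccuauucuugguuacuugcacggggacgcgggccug
Mir26a-2: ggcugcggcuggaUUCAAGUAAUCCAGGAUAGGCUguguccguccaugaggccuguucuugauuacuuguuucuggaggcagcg
Mir26b: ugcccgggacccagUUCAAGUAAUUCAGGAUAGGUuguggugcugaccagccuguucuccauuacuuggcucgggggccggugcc
Mir101a: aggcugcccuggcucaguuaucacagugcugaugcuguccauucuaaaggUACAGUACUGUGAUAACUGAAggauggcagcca
Mir101b: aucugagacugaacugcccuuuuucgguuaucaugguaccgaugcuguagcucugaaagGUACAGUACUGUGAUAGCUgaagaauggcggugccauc
The Mir26a-1 and Mir26a-2 hairpins share a stretch of 25 bases, uucaaguaauccaggauaggcugug, that holds the whole of miR-26a-5p. An exact read of up to 25 bases from this stretch fits both genes. The opposite arms of the copies differ at 6 of 22 bases, so reads of miR-26a-1-3p and miR-26a-2-3p can be told apart. Mir26b shared at most 11 bases with any other annotated miRNA gene. Mir101a and Mir101b shared 20 bases, aaagguacaguacugugaua.

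**Figure D1:**
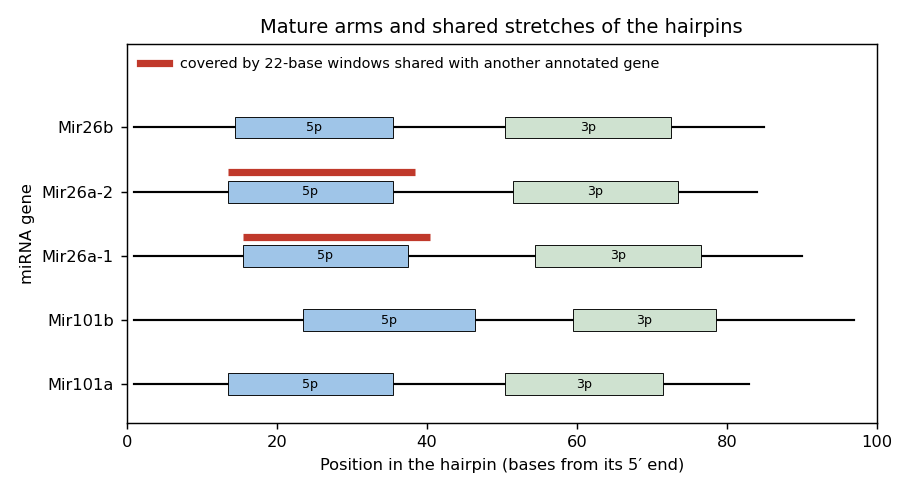
Mature 5p and 3p arms (boxes) along the 5 hairpins, in bases from the 5′ end of each hairpin, with the stretch covered by 22-base windows that also occur in another annotated gene (red). The red stretch lies over the 5p arm of Mir26a-1 and Mir26a-2 and is missing from the other 3 hairpins.

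How much of each hairpin can be assigned to 1 gene was counted in windows of 22 bases searched, on both strands, in all annotated transcripts outside the member's own locus. Introns and intergenic sequence were not searched. For Mir26a-1, 65 of 69 windows were found nowhere else, and the 4 shared ones, starting at bases 16 to 19 of the hairpin, all lay in Mir26a-2. For Mir26a-2, 59 of 63 windows were unique and the 4 shared ones lay in Mir26a-1. Every 22-base window of Mir26b, Mir101a and Mir101b was unique. With windows of 18 bases, near the length of the shortest mature entry, 61 of 66 were unique in Mir101a and 77 of 80 in Mir101b, against 68 of 68 in Mir26b.

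The 5 members lie on 5 chromosomes of mm10. Mir26a-1 (chr9:119031796-119031885, plus strand) lies in an intron of Ctdspl. Mir26a-2 (chr10:126995530-126995613, plus strand) lies within Ctdsp2 and overlaps an annotated exon in 2 of its 4 transcripts. Mir26b (chr1:74394310-74394394, plus strand) lies in an intron of Ctdsp1. Mir101a (chr4:101346945-101347027, minus strand) lies within the long noncoding RNA gene E130102H24Rik and overlaps an exon in 1 of its 2 transcripts. Mir101b (chr19:29135279-29135375, plus strand) lies in an intron of Rcl1, a gene with a role in ribosome biogenesis. The Ctdsp2 gene also holds Mir546, which had 2 reads in replicate 1 and 1 read in replicate 2.

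Counts on the strand of the gene were scaled per 1000000 such counts on all miRNA genes (CPM). Replicate 1 held 27661907 such counts, 50.3% of its reads, and replicate 2 held 15025315, 61.2% of its reads. The share of reads that fit more than 1 place was 33.4% in replicate 1 and 22.8% in replicate 2, and the most abundant gene, Mir21a, took 23.1% and 53.5% of the counts. Of 7 muscle miRNA genes, 3 reached 1 CPM in both libraries, with a summed level of 2651 CPM in replicate 1 and 1050 CPM in replicate 2, nearly all from Mir206. Both Mir133a genes and Mir1a-1, whose mature sequences come from more than 1 gene, had no read in either library. Genes that mark other cells were summed in the same way. The 4 blood genes had 216 and 124 CPM, nearly all from Mir142 (215 and 122 CPM). The endothelial Mir126a had 213 and 134 CPM, and 6 epithelial genes had 21.7 and 17.2 CPM. The hepatocyte gene Mir122 had 3.9 and 1.26 CPM, 6 genes of pluripotent cells had 0.398 and 0.532 CPM, and 3 neuronal genes had 0. The labels give each library its own biosample and replicate number but do not say whether these were separate cultures, so the differences between them may be technical.

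Mir26b carried most of the counted reads of these families. It had 411669 reads in replicate 1 and 79904 in replicate 2, or 14882 and 5318 CPM, a mean of 10100 ± 6763 CPM (SD, n = 2). It ranked 17 of 2202 genes in replicate 1 and 21 in replicate 2. Its exact (Clopper-Pearson) 95% intervals ran from 14837 to 14927 CPM and from 5281 to 5355 CPM, so the distance between the libraries was far beyond counting error. Such intervals cover counting error only, since amplified reads are not independent molecules. Mir26b made up 99.0% of the reads on the miR-26 genes in replicate 1 and 98.5% in replicate 2.

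The miR-26a genes were low beside it. Mir26a-2 had 3776 and 1147 reads, or 137 and 76.3 CPM, a mean of 106 ± 42.5 CPM (SD, n = 2). Mir26a-1 had 236 and 90 reads, or 8.53 and 5.99 CPM, a mean of 7.26 ± 1.80 CPM (SD, n = 2). Both were lower than Mir26b in each library with no overlap. These values do not give the level of the mature miRNA: a read of miR-26a-5p fits both hairpins, the tables hold a separate row for reads that fit several places, and that row had 18382947 reads in replicate 1 and 5599235 in replicate 2. How many of them are miR-26a-5p was not tested, so the counts on Mir26a-1 and Mir26a-2 set no upper limit on miR-26a.

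Mir101b led the miR-101 genes. It had 31719 and 10613 reads, or 1147 and 706 CPM, a mean of 927 ± 311 CPM (SD, n = 2), and ranked 71 and 73 among all genes. Mir101a had 2194 and 1048 reads, or 79.3 and 69.7 CPM, a mean of 74.5 ± 6.76 CPM (SD, n = 2). The levels of the 2 genes did not overlap, and Mir101b made up 93.5% of the miR-101 reads in replicate 1 and 91.0% in replicate 2. Mir101c, a further gene of that name on chromosome 9 that is not a member, had no read in replicate 1, which allows up to 0.108 CPM for reads that fit that gene alone, and 1 read in replicate 2. Its listed mature sequence of 19 bases, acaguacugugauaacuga, lies whole within miR-101a-3p, and its hairpin shares these 19 bases with Mir101a. A read of 19 bases or fewer from this stretch fits both genes, and any effect of this on the count of Mir101a was not tested.

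**Figure D2:**
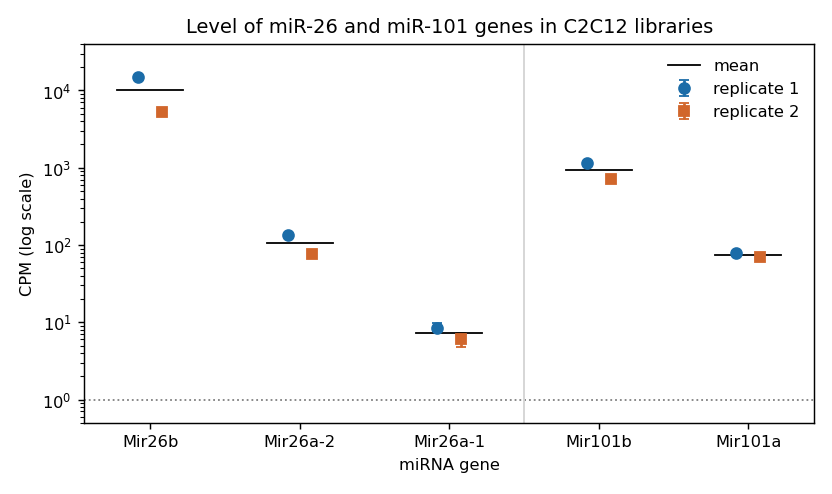
CPM (log axis) of the 5 genes in replicate 1 (circles) and replicate 2 (squares), with the mean (line) and exact 95% counting intervals, mostly smaller than the points. The dotted line marks 1 CPM. By counts on genes, Mir26b is highest, at 14882 and 5318 CPM, and Mir26a-1 is lowest, at 8.53 and 5.99 CPM. The Mir26a counts do not give the level of mature miR-26a.

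The order of the members by counted reads was Mir26b, Mir101b, Mir26a-2, Mir101a and Mir26a-1 in each library. A miRNA read covers the whole mature molecule, so counts were not divided by length, and the order per 100 bases of hairpin was the same. The hairpins were 83 to 97 bases long. Of the neighbours in this order, Mir26a-2 and Mir101a were the closest. Their ranges over the libraries, 76.3 to 137 CPM and 69.7 to 79.3 CPM, overlapped, but with TMM-scaled library sizes (explained with the comparison of the libraries) they did not: Mir101a then ran from 58.1 to 95.2 CPM and both values of Mir26a-2, of which the higher was 104 CPM, lay above that. Within a library Mir26a-2 had 1.72 times the reads of Mir101a in replicate 1 (exact 95% counting interval 1.63 to 1.81) and 1.09 times in replicate 2 (1.01 to 1.19), so it was the higher in both beyond counting error, by a factor that differed between them. The other neighbours had ranges that did not overlap. Reads of miR-26a-5p may be missing from the counts of Mir26a-1 and Mir26a-2. This is therefore an order of counts on genes and not of mature miRNAs.

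Within each family the leading gene stood out in counted reads by about an order of magnitude or more, with ratios that differed between the libraries. Mir26b had 103 times the reads of the 2 Mir26a genes together in replicate 1 (exact 95% counting interval 99.5 to 106) and 64.6 times in replicate 2 (61.1 to 68.4). Mir26a-2 had 16.0 times the reads of Mir26a-1 in replicate 1 (14 to 18.3) and 12.7 times in replicate 2 (10.3 to 16.0). Mir101b had 14.5 times the reads of Mir101a in replicate 1 (13.8 to 15.1) and 10.1 times in replicate 2 (9.50 to 10.8). The miR-26 genes together had 12.3 times the reads of the 2 miR-101 genes in replicate 1 and 6.96 times in replicate 2. The counting intervals of the libraries did not overlap for Mir26b over the Mir26a genes and for Mir101b over Mir101a, and they overlapped for Mir26a-2 over Mir26a-1. These ratios do not depend on how the libraries are scaled. Reads of miR-26a-5p fit both Mir26a hairpins and may be missing from the counts of these genes. The ratios that include the Mir26a genes therefore do not give ratios of mature miRNAs.

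Together the 5 genes held 1.63% of the counts in replicate 1 (exact 95% interval 1.62 to 1.63) and 0.618% in replicate 2 (0.614 to 0.622), a mean of 1.12% ± 0.713 (SD, n = 2). The miR-26 genes took 1.5% and 0.540% of the counts, and the miR-101 genes 0.123% and 0.0776%. Mir26b alone accounted for 91.6% of the members' reads in replicate 1 and 86.1% in replicate 2. In bulk RNA, fewer cells that make a miRNA and less of it per cell cannot be told apart. No member had a read on the opposite strand, and counts made without regard to strand were the same for all 5.

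Each gene's pair of counts was put to an exact binomial test, two-sided, at library sizes scaled by the trimmed mean of M-values (TMM). This sets the 2 libraries against counting noise only: no spread between replicates enters its p-values, and it says nothing of a condition. Of the 5 members 3 were called at an adjusted p of 0.05, 2 higher and 1 lower in replicate 2. Over all 556 tested genes 41.5% were called, 24.6% higher and 16.9% lower. Among the 210 tested genes with a mean of at least 10 CPM, a level that 4 of the 5 members reach, 175 were called, so the members' count does not stand above that of genes at like level. By library totals in place of TMM, which shifts every log2 ratio by -0.90, all 5 members were lower in replicate 2. Over all genes the split was then 26 higher and 304 lower, against 137 and 94 with TMM.

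Mir26b was lower in replicate 2, with a log2 ratio of -0.59 (counting SE 0.0056), and lower under each of the 3 scalings used. With DESeq2 size factors its log2 ratio was -0.65, and with library totals it was -1.48. Among the 210 tested genes with a mean of at least 10 CPM, 15 had a lower TMM ratio. Mir206 was also lower in replicate 2, with a log2 ratio of -0.42. The multi-mapping share, the Mir21a share and the summed muscle genes given above also differed between the libraries, and their part in this difference was not tested.

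Mir101a was higher in replicate 2 after TMM scaling, with a log2 ratio of 0.71 (counting SE 0.05, adjusted p = 2.4e-36, exact binomial test), but lower by library totals, at -0.19. Mir101b had a log2 ratio of 0.20 with TMM (counting SE 0.02, adjusted p = 4.0e-33, exact binomial test) and of -0.70 by library totals. The ratio of Mir26a-1 was 0.39 (counting SE 0.18, adjusted p = 0.077, exact binomial test) and that of Mir26a-2 was 0.06 (counting SE 0.05, adjusted p = 0.381, exact binomial test), with neither past the threshold. By library totals these were -0.51 and -0.84, both called lower. The median log2 ratio over the 5 members was 0.20, beside 0.09 over all tested genes. The median size of the ratio, without sign, was 0.39 for the members and 0.41 for all tested genes.

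**Figure D3:**
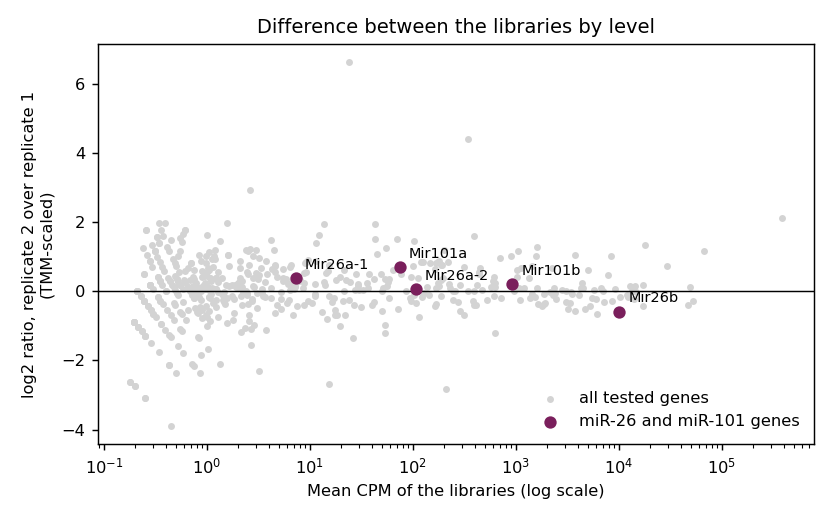
TMM-scaled log2 ratio of replicate 2 over replicate 1 against mean CPM (log axis) for the 556 tested genes (grey) and the 5 members (purple). The members lie within the cloud of other genes, with Mir26b at -0.59 and Mir101a at 0.71 at the ends of their range.

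Genes whose level was most like that of a member were found by distance over log2(CPM + 1) in the 2 libraries. Nearest to Mir26b were Mir20a at 8649 ± 4767 CPM, Mir130a at 10297 ± 5143 CPM and Mir378a at 9094 ± 3637 CPM (SD, n = 2). Nearest to Mir101b were Mir181c at 969 ± 408, Mir181d at 1014 ± 240 and Mir350 at 1070 ± 414 CPM (SD, n = 2). Mir101a was nearest to Mir455, Mir192 and Mir3102, Mir26a-2 to Mir582, Mir675 and Mirlet7c-1, and Mir26a-1 to Mir1191, Mir1948 and Mir126b. With 2 libraries this likeness is one of level only.

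Other pairs of genes that give 1 mature miRNA were set beside Mir26a-1 and Mir26a-2, whose higher copy held 94.1% of the pair's reads in replicate 1 and 92.7% in replicate 2. Across 9 other pairs this share ran from 56.0% to 98.9% in replicate 1 and from 56.8% to 99.5% in replicate 2. The lowest was that of the Mir16 genes, which repress cell cycle genes, with Mir16-1 at 868 and 935 CPM and Mir16-2 at 683 and 712 CPM. Mir24-2, at 3403 and 1550 CPM, was higher than Mir24-1, at 151 and 142 CPM. Mir103-2, at 63.7 and 44.1 CPM, was higher than Mir103-1, at 3.11 and 3.26 CPM. The shared stretch was 25 bases in the Mir26a pair and 22 to 28 bases in the others. Reads of the shared mature miRNA fit both copies and may be missing from these counts. The shares therefore do not give the part of each copy in the mature miRNA.

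**Figure D4:**
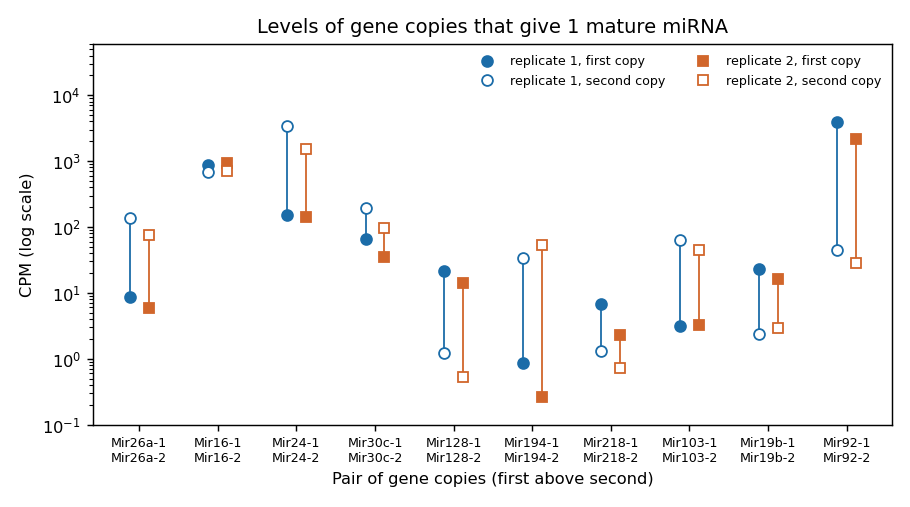
CPM (log axis) of both copies in 10 pairs of genes that give 1 mature miRNA, in replicate 1 (circles) and replicate 2 (squares). Filled points are the first copy named and open points the second, and the Mir26a pair at the left has the open Mir26a-2 above the filled Mir26a-1 in both libraries.

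Few other genes carry the seeds of these families. No RefSeq mature sequence from a gene outside the members had bases 2 to 8 of miR-26a-5p, miR-101a-3p or miR-101b-3p. With bases 2 to 7 only, the miR-26 seed was also found in Mir6371, which had no read in either library. That of miR-101a-3p was found in Mir144, an erythroid miRNA, with 10 and 3 reads or 0.362 and 0.200 CPM. That of miR-101b-3p was found in the 5p arm of Mir582, whose gene had 132 and 70.7 CPM over both arms.

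A list of 12 other miRNA genes reported to act on Ezh2 was set beside the members. Of these, 6 reached 1 CPM in both libraries and 3, the Mir124a genes, had no read, though these are copies of 1 miRNA, whose reads can fit all of them, so no limit follows. Mir98, of the let-7 family, had 6860 and 2577 CPM, and Mir30d had 3516 and 3938 CPM. Mir214, reported to act on Ezh2 in differentiating muscle cells, had 4603 and 2352 CPM, and Mir25 had 508 and 274 CPM. All 4 lay below Mir26b in each library, while Mir98, Mir30d and Mir214 lay above Mir101b and Mir25 below it. Reads of miR-26a-5p fit both Mir26a genes and may be missing from their counts. The place of mature miR-26a among these miRNAs is therefore not known. Mir138-2 and Mir138-1, copies of 1 miRNA, had means of 15.3 ± 0.992 and 9.25 ± 1.59 CPM (SD, n = 2), and Mir137, Mir144 and Mir217 had at most 10 reads in a library. Between the libraries, 3 of 8 tested genes of the list were called higher in replicate 2 (Mir30d, Mir138-1 and Mir138-2). Another 2, Mir98 and Mir214, were called lower, and 3 did not pass. Over all 556 tested genes 24.6% were called higher and 16.9% lower. Of the 210 with a mean of at least 10 CPM, 175 were called. The median log2 ratio of the 8 genes, which include Mir137 and Mir144, was 0.37, beside 0.09 over all tested genes. By library totals, Mir138-1 (10.4 and 8.12 CPM) and Mir138-2 (16.0 and 14.6 CPM) were lower in replicate 2, while Mir30d was still higher.

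**Figure D5:**
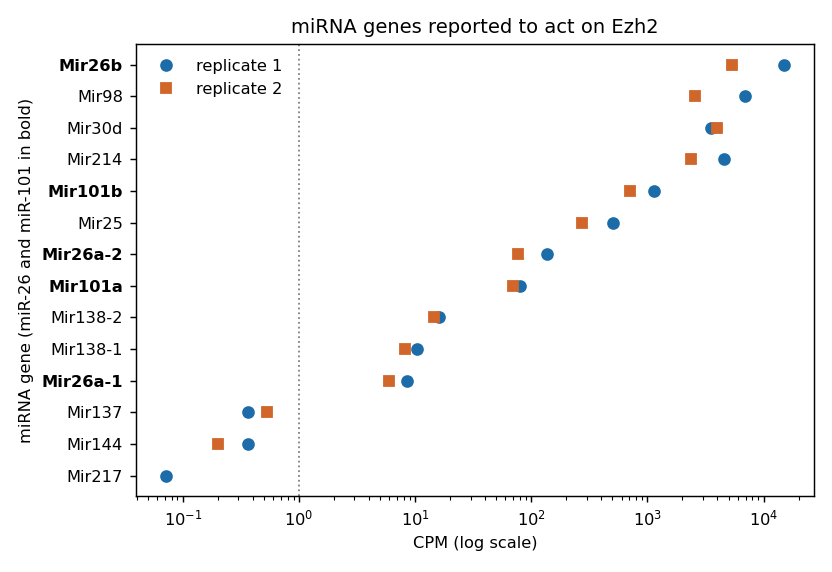
CPM (log axis) in replicate 1 (circles) and replicate 2 (squares) of the 5 members (bold) and of the genes with a read among 12 other miRNA genes reported to act on Ezh2. The dotted line marks 1 CPM, and Mir217, with no read in replicate 2, has no square. By counts on genes, Mir26b is the highest of all, and Mir26a-1 lies below Mir138-1. Reads of miR-26a-5p may be missing from the Mir26a counts, so the place of mature miR-26a is not shown.

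Matches to the seeds were searched in annotated 3′ UTRs, as a description of sequence with no measurement of mRNA. The longest 3′ UTR of each gene was read in its own orientation for the letters TACTTGA (miR-26), GTACTGT (miR-101a-3p) and TACTGTA (miR-101b-3p), the reverse complements of bases 2 to 8. The last 2 overlap in 6 letters. The 402-base 3′ UTR of Ezh2, on chromosome 6, held 1 miR-26 match at bases 248 to 254 and 2 miR-101a matches at bases 59 to 65 and 114 to 120, the second of them overlapping the 1 miR-101b match. They are shown with the match in capitals.
Ezh2, miR-26: atttgaataaagaaTACTTGAacttgttg
Ezh2, miR-101a, first: ttcaggaaccttgaGTACTGTgggcaatt
Ezh2, miR-101a, second: tctgaatttgcaaaGTACTGTaacagtaa
Among 2252 genes with a 3′ UTR within 25% of this length, 2.89% held the miR-26 letters, 2.71% the miR-101a letters and 2.62% the miR-101b letters.

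Of the other PRC2 subunit genes, Suz12 held 1 miR-26 match in a 3′ UTR of 1933 bases, where 12.6% of UTRs of like length hold 1, and Eed held 1 miR-101a match in 283 bases, where 1.83% do. No match to any of the 3 seeds was found in the searched window of Ezh1. Of the host genes, Ctdsp2 held 1 miR-26 match in 3489 bases, where 22.8% of like UTRs do, and Ctdspl 1 miR-101b match in 3349 bases, where 25.5% do. The windows of Ctdsp1 and Rcl1 held none. The miR-26 matches follow, with the match in capitals.
Suz12, miR-26: ccagtttaggttttTACTTGAacatgttt
Ctdsp2, miR-26: ccaagtgttgctctTACTTGAtttgccaa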

How the data were processed

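Each library has 1 table of whole-number read counts per miRNA gene, as deposited, in 3 columns (either strand, strand of the gene, opposite strand). The build mm10 and annotation GENCODE M21 are named per the file headers of the deposited readme files. The labels point to a protocol for adapter trimming. Which aligner and counting tool were used is not given in the sources used here. Rows that name no gene held 49.7% and 38.8% of the reads and stayed out of totals and tests. All 2202 gene identifiers matched GENCODE M21.

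CPM used the strand of the gene. TMM factors (edgeR 4.0.16, R 4.3.3) and DESeq2 1.42.0 size factors were computed over genes with at least 10 counts over both libraries. With 1 library a side edgeR's quasi-likelihood test has no residual degrees of freedom, so the exact binomial test (SciPy 1.17.1, Benjamini-Hochberg over 556 genes, threshold 0.05) was used. Log2 ratios carry a prior count of 0.5. The test was also run on simulated counts that held counting noise only, which cannot show how it behaves with spread between replicates. A genome sequence was not used here, so windows were searched in annotated transcripts. Sequences are from RefSeq (GRCm38.p6) and GENCODE. The named genes are the members, genes with their seed, those of the Ezh2 list with a read, the 3 nearest in level to each member, the copy pairs and the cell type markers. Members and lists were chosen with earlier results of these data known. Alternatives changed the scaling, the count filter, the prior count, the strand column, the denominator, the window length and the kind of seed match.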

Additional observations from a re-analysis of the deposited data

Results flagged for a closer look

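The row of reads that fit several places, which entered no level given above, held 18382947 reads in replicate 1 and 5599235 in replicate 2. It is listed because it holds reads outside the measurement used, with no control libraries to set it against, and its size was not tested as unusual. It bears on the members because miR-26a-5p lies whole in the Mir26a-1 and Mir26a-2 hairpins, and its part in the low counts of these genes was not tested.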

How the results depend on the processing

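With Mir21a left out of the totals, the mean levels rose to 12.0 CPM for Mir26a-1, 171 for Mir26a-2, 127 for Mir101a and 1505 for Mir101b, a shift beyond their SD. Mir26b rose alike, from 10100 to 15391 CPM, which is within its larger SD. By library totals in place of TMM, the log2 ratio of replicate 2 over replicate 1 turned from higher to lower for Mir26a-1 (-0.51), Mir26a-2 (-0.84), Mir101a (-0.19) and Mir101b (-0.70), and with DESeq2 size factors for Mir26a-2 (-0.0023). This follows from the construction, since the scalings move all genes alike. Mir26b kept its direction and call under every alternative fit. The other alternatives for levels, ratios between members and the count of called genes kept them within the SD or within 1.5 times, with 217 to 330 genes called against 231. Part of this was fixed in advance. Leaving out a library gives the value of the other one, which with 2 libraries always lies within the SD. Mir26b then ranges from 5318 to 14882 CPM and its ratio to the Mir26a genes from 64.6 to 103. Counting without strand could not change the ratios between members, since no member had a read on the opposite strand. Unique windows fell to 89.0% of the Mir26a-1 hairpin and 86.6% of the Mir26a-2 hairpin at 18 bases, and rose to 98.5% and 98.3% at 25. In Mir101a and Mir101b they fell to 92.4% and 96.3% at 18 bases. An 8-base match of miR-101a was held by 1 of the 8 genes searched, against 2 for 7 bases. For miR-26 it was 2 genes against 3, and for miR-101b 2 genes with either length. With bases 2 to 7 followed by A, the miR-101a match was in Ezh2 and Ctdspl but not in Eed. No paired analysis was possible because the study has 1 group, so no replicate number is shared between groups. Depth limits Mir26a-1 most, with 90 reads in replicate 2.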

Other observations

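Ezh2 held letters for both families in its 3′ UTR. Among the 2252 genes with a 3′ UTR within 25% of its length, 2 held a miR-26 and a miR-101a match, Ezh2 included, or 0.0888%. This share was chosen after the matches had been seen, counts the gene that prompted it and describes letters only.

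Genes of RefSeq whose mature sequence is shared with another gene numbered 94 in the tables, against 924 with none shared. Of the former 48.9% reached 1 CPM in both libraries and of the latter 25.4%. Among those that did, the median of the mean levels was 43.0 CPM for genes with a shared sequence and 58.3 CPM for the others. By counts on genes, Mir26a-2, at 106 CPM, was above the first median and Mir26a-1, at 7.26 CPM, below it. A read of a shared mature sequence fits each gene that holds it, and the effect of this on these counts was not tested. The shares and medians therefore describe counts on genes and do not compare levels of mature miRNAs.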
